A study of Mus musculus with 30 samples.

Results

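The 10 genes described here encode histone lysine demethylases, enzymes that take methyl groups off histone H3, and were followed in fractions of newborn mouse retina. The members were the rows listed as Kdm6a, Kdm6b, Kdm3a, Kdm3b, Kdm4a, Kdm4b, Kdm4c, Kdm1a, Kdm5a and Kdm5b, 10 of the 38720 gene symbols in each of 2 deposited tables, and all 10 were abundant enough to be tested in each comparison, which took a mean normalised count of at least 10. Retinas of pups at postnatal day 0 were dissociated with papain, and cells bound by magnetic beads against CD90, the product of Thy1, formed the retinal ganglion cell (RGC) fraction, while the cells not bound formed the non-RGC fraction. The tables cover 9 poly(A) RNA libraries, 3 of wild type (WT) RGCs from C57BL/6 mice, 3 of RGCs from mice called mutant and 3 of non-RGC cells from mice called mutant. The labels hold 2 mutant genotypes, Math5Cre; Ezh2f/f and Math5Cre; Ezh2f/fG9af/+, and the tables name their mutant only "mut", so the mutant group carries Math5Cre and floxed Ezh2 in either case and may or may not carry 1 floxed copy of G9a (Ehmt2). Math5Cre is active in cells that have expressed Math5 (Atoh7), which includes ganglion cells and other descendants of the same progenitors but not every retinal cell, so neither bead fraction is a pure population of recombined cells. No Cre control is named for WT, and the labels leave it unsaid whether libraries of the same group are different animals. Xist and Y-linked RNA, given below, differed too far within each group for all 3 libraries to hold the same animals. Libraries alike in these RNAs may still be technical repeats. Each p-value therefore measures only how far these libraries scatter, which may in part be technical.

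Histone demethylases fall into families with different chemistry. Kdm1a is a flavin-dependent amine oxidase, and the other members are Jumonji-domain oxygenases that need iron, oxygen and 2-oxoglutarate. The Kdm6 enzymes act on H3K27, the residue that Ezh2 methylates within Polycomb repressive complex 2 (PRC2), the Kdm3 enzymes on H3K9, the residue that G9a methylates, the Kdm4 enzymes on H3K9 and H3K36, and Kdm1a and the Kdm5 enzymes on H3K4. In the developing nervous system these enzymes are known for their part in the switching of gene programmes as progenitors become neurons.

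The 9 libraries held between 10551825 and 12259494 assigned reads, and the members had between 635 and 4265 reads in a library. Values below are read counts normalised over all 9 libraries. Fold and percent changes come from limma on log2 values scaled within each comparison, so they differ slightly from ratios of the printed means. The numbers 1 to 3 given to the libraries of a group follow their size factors from high to low and pair nothing between groups. Counts were not divided by transcript length, so the levels of different genes are not compared with each other. Several libraries stood apart in their sex-linked RNA. Xist, the X-inactivation RNA of female cells, had 4 reads in mutant RGC library 1 and 7 reads in non-RGC library 3, against normalised counts between 1159 and 9071 in the other 7 libraries. The summed normalised count of the Y-linked Ddx3y, Eif2s3y, Kdm5d and Uty was highest in the same libraries, 2296 and 2544, followed by 1830 and 1801 in WT libraries 3 and 1, and lay between 598 and 947 in the other 5. The balance of Xist and Y-linked RNA therefore differed between libraries within each group.

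The targeted genes gave no check of the deletion, since the tables count reads over whole genes. Ezh2 had normalised counts of 1154, 1169 and 1576 in WT RGCs. In mutant RGCs it had 1962, 1863 and 1811 (log2 0.58, SE 0.13, limma adjusted p = 0.0292). It was higher, not lower, in the RGC libraries labelled mutant. Ehmt2 had 3743, 3603 and 3857 in WT RGCs and 2364, 2799 and 2962 in mutant RGCs (log2 -0.43, SE 0.11, limma adjusted p = 0.0332). Atoh7, whose control elements drive the Cre, had 78.6, 82.1 and 275 in WT and 188, 354 and 338 in mutant RGCs, which overlapped and did not pass (log2 1.25, SE 0.53, limma adjusted p = 0.1130).

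The promoter windows of Kdm6a and Kdm3a, the genes that rose in mutant RGCs and have a window in the RefSeq table, are shown first, and motifs of hypoxia-responsive and stress-responsive factors are counted in them. Each window runs from 250 bases before to 50 bases after an annotated start on GRCm38.p6, which is the assembly also called mm10, and is printed 5′ to 3′ on the gene's strand. Capitals mark every match, on either strand, to ACGTG or GCGTG (cores of the hypoxia response element), to CCAAT, to TGANTCA (AP-1), to TGACGTCA (the cyclic AMP response element) and TTTCCCGC or TTTGGCGC (E2F).
Kdm6a, chrX:18162325-18162624, plus strand: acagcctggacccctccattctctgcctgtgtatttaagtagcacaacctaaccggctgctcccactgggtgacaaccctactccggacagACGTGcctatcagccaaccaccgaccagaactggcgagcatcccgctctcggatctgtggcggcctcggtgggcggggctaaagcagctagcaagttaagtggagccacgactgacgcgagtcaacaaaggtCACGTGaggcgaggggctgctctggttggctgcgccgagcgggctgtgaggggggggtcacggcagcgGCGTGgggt
Kdm3a, chr6:71632868-71633167, minus strand: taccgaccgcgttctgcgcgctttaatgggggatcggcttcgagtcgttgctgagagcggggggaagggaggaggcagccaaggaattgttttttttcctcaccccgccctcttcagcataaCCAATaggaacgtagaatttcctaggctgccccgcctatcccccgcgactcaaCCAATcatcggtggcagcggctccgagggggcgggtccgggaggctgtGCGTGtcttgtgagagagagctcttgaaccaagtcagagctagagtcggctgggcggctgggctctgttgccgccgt
The Kdm6a window held 3 matches to ACGTG, 2 of which are the strands of 1 palindrome, and 1 match to GCGTG. For Kdm3a the table has 3 windows, and the one printed held 1 match to GCGTG and 2 to CCAAT. The other Kdm3a windows, chr6:71632637-71632936 and chr6:71609090-71609389, are not printed, and each held 1 match to TGANTCA and none to the other motifs named. Among 32851 RefSeq windows of the same length, 19.6% held ACGTG, 32.4% GCGTG and 37.4% CCAAT, so such matches are common. Neither printed window held TGACGTCA, TTTCCCGC or TTTGGCGC, which were found in 1.79%, 1.07% and 0.514% of the windows, or TGANTCA, found in 7.81%. These are matches of letters and not measured binding sites. Windows were matched for 6 of the 10 members. Members not among those that rose held hypoxia response cores too. Kdm4c window 2 held 4 matches to ACGTG and 2 to GCGTG, the Kdm1a window 3 to GCGTG and the Kdm5b window 1 to each. Kdm4c window 1 and the Kdm4a window held neither core.

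Mutant RGCs were compared with WT RGCs to ask which RNAs of bead-selected cells differ by genotype. In the mutant RGC libraries 4 of the 10 demethylases rose, Kdm5a by 44.0%, Kdm6a by 38.0%, Kdm3a by 28.3% and Kdm3b by 16.9%, and none fell. The median log2 fold change of the 10 was 0.19, where that of all 15276 genes tested was 0.00. Of all genes tested, 26.0% were called at a limma adjusted p under 0.05 and 13.7% were called higher. At an unadjusted p under 0.05 the members gave 5 higher and none lower, where 45.0% of all genes passed, 22.6% as higher and 22.4% as lower. The authors' deposited table called 2 of the 10, where it called 11.9% of 25338 genes with an adjusted p.

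**Figure D1:**
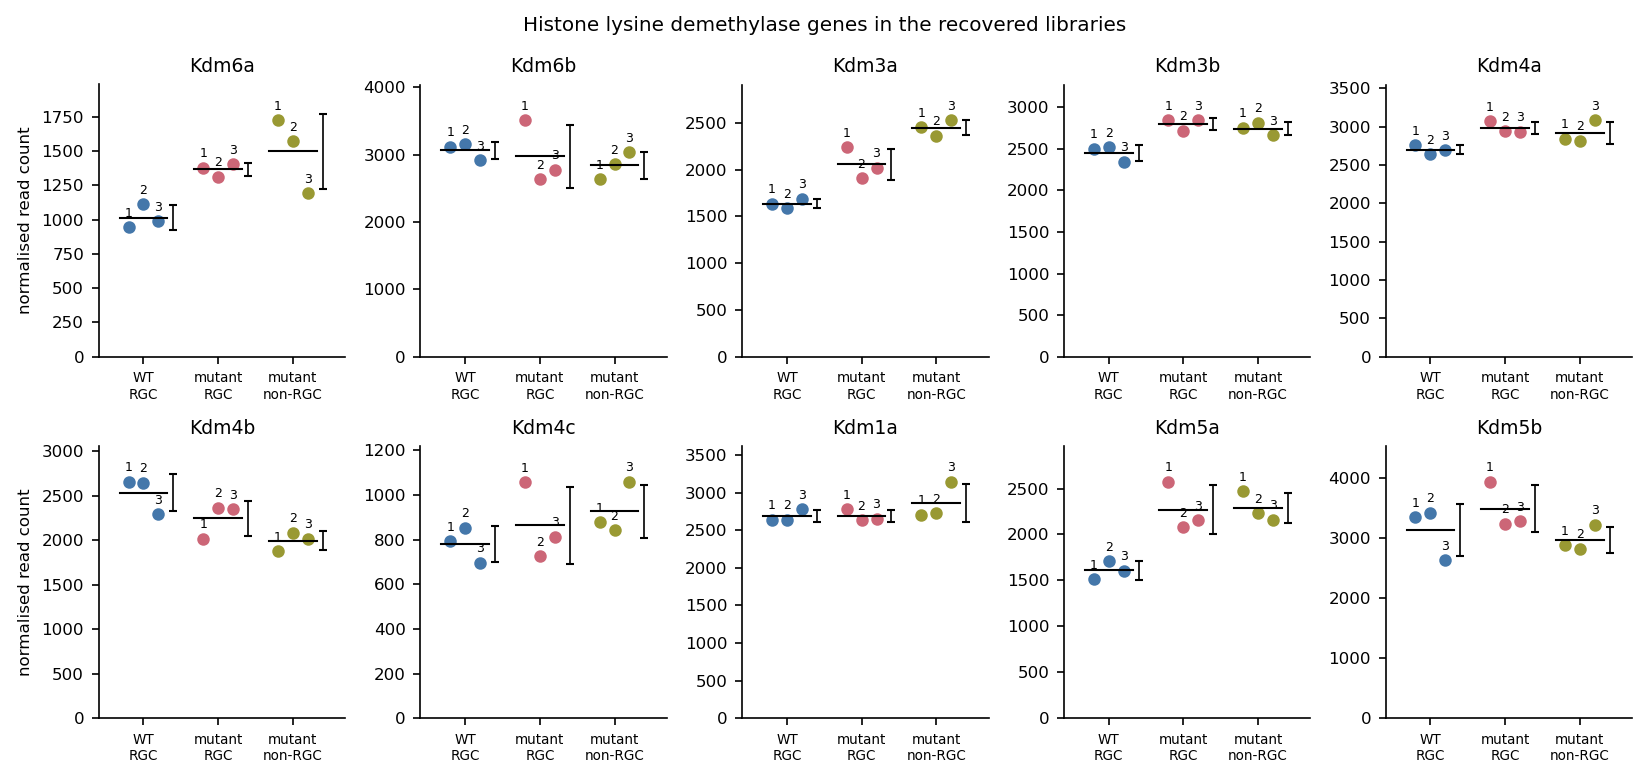
Normalised read count of each demethylase gene (vertical axis, from 0, with its own scale in each panel) in 3 WT RGC, 3 mutant RGC and 3 mutant non-RGC libraries. Points are libraries with their number, horizontal bars are group means and vertical bars are ±1 SD (n = 3). Kdm6a, Kdm3a, Kdm3b, Kdm4a and Kdm5a have every mutant RGC point above every WT RGC point.

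Kdm6a (chromosome X, 18160862 to 18279936), also called Utx, removes methyl groups from H3K27. Its normalised counts were 944, 1113 and 987 in WT RGCs, 1377, 1312 and 1405 in mutant RGCs and 1725, 1572 and 1192 in mutant non-RGC cells. The RGC groups did not overlap, while non-RGC library 3 lay below all 3 mutant RGC libraries and the other non-RGC libraries above them. Kdm6a rose from 1015 ± 87.3 in WT to 1365 ± 47.4 in mutant RGCs (SD, n = 3 each; log2 0.46, SE 0.08, 95% interval 0.28 to 0.65, limma adjusted p = 0.0238). The authors' deposited table called it as well (adjusted p = 0.0393). In all, 5 of the 10 members had RGC groups that did not overlap, each with the mutant higher. Over all genes tested such groups made up 51.1%, of which the mutant was higher for 26.2% of all genes and lower for 24.9%, so the share of members whose groups were apart was near that of all genes.

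Kdm6a and its relative on the Y chromosome have to be read with the sex-linked RNAs above, because Kdm6a is known to escape X inactivation. Uty, the Y-linked relative of Kdm6a, had 262, 77.9 and 279 in WT RGCs, 446, 99.9 and 114 in mutant RGCs and 130, 137 and 458 in non-RGC cells. In WT the library with the least Uty, library 2, had the most Kdm6a and the most Xist (3360). The sum of Kdm6a and Uty was 1207, 1190 and 1267 in WT RGCs, 1823, 1412 and 1519 in mutant RGCs and 1855, 1708 and 1650 in non-RGC cells. The WT libraries lay closer together in the sum (coefficient of variation 3.3%) than in Kdm6a (8.6%), as did the non-RGC libraries (6.1% and 18.3%). The mutant RGC libraries lay further apart in the sum (13.5%) than in Kdm6a (3.5%). In both measures every mutant library stood above every WT library. With the Y-linked level as a covariate, an alternative chosen after the data were seen, the log2 fold change of Kdm6a was 0.45 (limma adjusted p = 0.0205), and without mutant RGC library 1 it was 0.47 (limma adjusted p = 0.0387). Reads of 75 bases from stretches that Kdm6a and Uty share could be assigned to either gene, and how such reads were treated is not stated in the labels or headers.

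**Figure D2:**
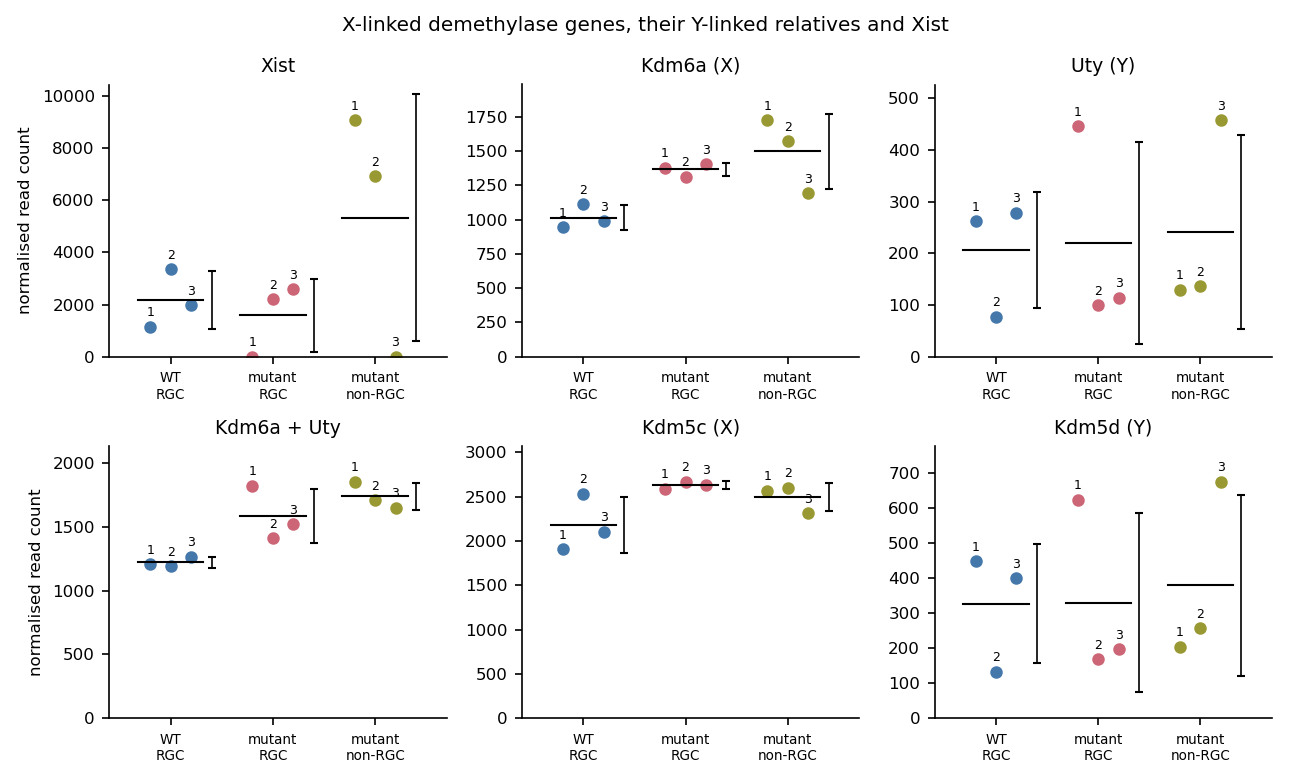
Normalised read counts (vertical axes, from 0) of Xist, the X-linked Kdm6a and Kdm5c, their Y-linked relatives Uty and Kdm5d, and the sum of Kdm6a and Uty, in the 9 libraries. Points are numbered libraries, horizontal bars are means and vertical bars ±1 SD (n = 3). Mutant RGC library 1 and non-RGC library 3 lie near 0 for Xist and highest for Uty and Kdm5d.

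Kdm6b (chromosome 11, 69398508 to 69420367), the other H3K27 demethylase, also called Jmjd3, is known as a gene that stimuli induce quickly. It had 3120, 3156 and 2918 in WT RGCs, 3517, 2637 and 2779 in mutant RGCs and 2636, 2865 and 3036 in non-RGC cells. The groups overlapped, and the spread of the mutant RGCs came from library 1, which held the highest value of all 9. The log2 difference between mutant and WT RGCs was -0.02 (95% interval -0.26 to 0.23, limma adjusted p = 0.9078), and its sign turned with the scaling. Of 15 immediate early genes, RNAs that neuronal activity or cell handling induces, 6 fell and none rose in the same libraries (7 and none at an unadjusted p under 0.05), among them Npas4 (log2 -2.47), Nr4a1 (-1.66) and Nr4a3 (-3.28), with limma adjusted p = 0.0144, 0.0202 and 0.0215.

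The PRC2 genes, whose products write the H3K27 mark, were taken beside its erasers. Of 11 tested, 3 rose and 1 fell, with a median log2 fold change of 0.30. Those with the smallest adjusted p were the accessory subunit gene Phf1, which fell (log2 -0.71, SE 0.10, limma adjusted p = 0.0225), the core subunit gene Suz12 (log2 0.58, SE 0.10, limma adjusted p = 0.0243) and the accessory subunit gene Aebp2 (log2 0.34, SE 0.07, limma adjusted p = 0.0260). The 5 genes Kmt2c, Kmt2d, Paxip1, Pagr1a and Ncoa6 belong to the complex in which Kdm6a works with H3K4 methyltransferases. None of the 5 passed the limma test or reached an unadjusted p under 0.05, and their median was -0.04. Core subunits that this complex shares with other H3K4 methyltransferases are not among the 5 and are counted with H3K4 methylation below. Of these, Rbbp5 rose (log2 0.37, limma adjusted p = 0.0244). Wdr5, Ash2l and Dpy30 did not pass (limma adjusted p = 0.0628, 0.0913 and 0.6188).

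Kdm3a (chromosome 6, 71588970 to 71632990), also called Jmjd1a, removes methyl groups from H3K9 and is a known hypoxia-induced gene. Its normalised counts were 1638, 1587 and 1689 in WT RGCs, 2239, 1906 and 2022 in mutant RGCs and 2456, 2363 and 2531 in non-RGC cells. None of the 3 groups overlapped, and the order WT RGC, mutant RGC, mutant non-RGC held for every library. Kdm3a rose from 1638 ± 50.7 to 2056 ± 169 between the RGC groups (SD, n = 3 each; log2 0.36, SE 0.07, 95% interval 0.19 to 0.52, limma adjusted p = 0.0251). The authors' deposited table did not call it (adjusted p = 0.1274).

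Kdm3b, the close relative of Kdm3a, had 2501, 2522 and 2346 in WT RGCs, 2847, 2720 and 2845 in mutant RGCs and 2755, 2814 and 2666 in non-RGC cells. Each mutant RGC library lay above each WT library, and the mutant fractions overlapped. Its rise was the smallest of the 4, from 2456 ± 96.1 to 2804 ± 73.1 (SD, n = 3 each; log2 0.23, SE 0.06, 95% interval 0.09 to 0.37, limma adjusted p = 0.0379). The authors' deposited table did not call it (adjusted p = 0.5045), and neither did limma with no filter on low counts (adjusted p = 0.0576).

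Among 13 genes of H3K9 methylation and its readers, 2 rose and 1 fell in mutant RGCs, with a median of 0.17. They were Suv39h1 (log2 0.43, SE 0.09, limma adjusted p = 0.0282) and the G9a partner gene Ehmt1 (log2 0.19, SE 0.06, limma adjusted p = 0.0481), which rose, and Ehmt2, which fell as given above. Of 15 hypoxia-induced genes, 3 rose and none fell, and at an unadjusted p under 0.05 these numbers were 6 and none. Egln3, which encodes an oxygen-dependent hydroxylase, rose from 56.9 ± 11.5 to 133 ± 18.3 (SD, n = 3 each, limma log2 1.25, adjusted p = 0.0238). Mxi1 rose from 1081 ± 70.2 to 1477 ± 160 (log2 0.48, limma adjusted p = 0.0245). Car9, which encodes a carbonic anhydrase, rose from 7.28 ± 0.843 to 17.5 ± 5.16 (log2 1.16, limma adjusted p = 0.0488). Car9 had few reads, 8, 6 and 7 in WT RGCs and 21, 23 and 12 in mutant RGCs. Its WT mean lay below the minimum mean count for testing, which Car9 met only through its mutant values. The summed normalised count of the hypoxia list was 12684, 13077 and 15257 in WT RGCs, 18459, 15043 and 15185 in mutant RGCs and 16343, 16333 and 19990 in non-RGC cells. WT library 3 overlapped the mutant RGCs in that sum, which weighs genes by their counts. With each gene weighed alike, as the mean log2 value relative to the gene's own mean over the 9 libraries, it did not overlap. The list then had -0.30, -0.29 and -0.13 in WT RGCs and 0.31, -0.09 and -0.09 in mutant RGCs. The part of oxygen supply in the Kdm3a result was not tested.

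The Kdm4 genes, whose products demethylate H3K9 and H3K36, gave no call. Kdm4a (chromosome 4, 118136957 to 118180090) had 2759, 2641 and 2694 in WT RGCs and 3072, 2942 and 2934 in mutant RGCs, groups that did not overlap. Its log2 fold change of 0.18 (SE 0.06, 95% interval 0.05 to 0.31) did not pass (limma adjusted p = 0.0548). Of 9 alternatives with all libraries, 2 passed, limma with total-count scaling (adjusted p = 0.0375) or a minimum mean of 50 (adjusted p = 0.0478). The authors' deposited table did not call Kdm4a (adjusted p = 0.6966), nor did limma with no filter on low counts (adjusted p = 0.0916). Kdm4b (chromosome 17, 56325970 to 56403774) had 2659, 2647 and 2293 in WT, 2018, 2366 and 2348 in mutant RGCs and 1875, 2086 and 2019 in non-RGC cells. It was the member with the lowest fold change, at log2 -0.14 (95% interval -0.39 to 0.10, limma adjusted p = 0.3253), and the RGC groups overlapped through WT library 3.

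Kdm4c (chromosome 4, 74242497 to 74405864) had 793, 853 and 696 in WT RGCs, 1057, 725 and 813 in mutant RGCs and 877, 842 and 1060 in non-RGC cells. The highest values, 1057 and 1060, belonged to mutant RGC library 1 and non-RGC library 3, the libraries nearly lacking Xist, and the next was 877. The same libraries had the highest summed photoreceptor markers, 19067 and 19054 against 9359 to 14830 in the other 7. This was not particular to photoreceptors. The sums of amacrine and horizontal cell markers (13747 and 13747), pigment epithelium markers (2235 and 2106) and the hypoxia list (18459 and 19990) were also highest there. The part of any of these in the Kdm4c values was not tested. The difference between RGC groups did not pass (log2 0.17, 95% interval -0.16 to 0.50, limma adjusted p = 0.3869). None of 5 genes of H3K36 methylation passed the limma test or an unadjusted p under 0.05 (median 0.06).

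Of the H3K4 demethylases, Kdm5a rose most. Kdm5a (chromosome 6, 120364099 to 120444574), also called Rbp2 for its binding to the retinoblastoma protein, had 1512, 1711 and 1604 in WT RGCs, 2576, 2081 and 2155 in mutant RGCs and 2470, 2229 and 2160 in non-RGC cells. Each of the 6 mutant libraries lay above each WT library, and the mutant fractions overlapped. The mean was 1609 ± 100 in WT and 2271 ± 267 in mutant RGCs (SD, n = 3 each; log2 0.53, SE 0.09, 95% interval 0.32 to 0.74, limma adjusted p = 0.0238), and the authors' deposited table called it too (adjusted p = 0.0104). Without mutant RGC library 1, the highest, the log2 fold change was 0.45 (limma adjusted p = 0.0350).

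Kdm5b (chromosome 1, 134560178 to 134632878), also called Plu1, had 3347, 3423 and 2631 in WT RGCs, 3946, 3245 and 3284 in mutant RGCs and 2884, 2825 and 3227 in non-RGC cells. WT library 3 was the lowest of all 9 and mutant RGC library 1 the highest, and WT libraries 1 and 2 lay above mutant RGC libraries 2 and 3. The difference was log2 0.19 (95% interval -0.09 to 0.48, limma adjusted p = 0.2502). The X-linked Kdm5c, another H3K4 demethylase that escapes X inactivation, had 1904, 2530 and 2101 in WT and 2588, 2669 and 2633 in mutant RGCs and did not pass (log2 0.32, limma adjusted p = 0.0675). Its WT maximum was again library 2, where Kdm5d, the Y-linked relative, was lowest at 133.

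Kdm1a (chromosome 4, 136550533 to 136602787), also called Lsd1, works in the CoREST complex of neuronal gene repression. Its normalised counts were 2640, 2638 and 2776 in WT RGCs, 2778, 2635 and 2653 in mutant RGCs and 2706, 2726 and 3146 in non-RGC cells. The RGC groups overlapped almost fully, with a log2 difference of 0.04 and a 95% interval from -0.10 to 0.17 (limma adjusted p = 0.6563). Of 12 genes of its complex and partners, 2 rose and 1 fell, the corepressor gene Rcor1 (log2 0.37, SE 0.08, limma adjusted p = 0.0282), the H3K4 reader gene Phf21a (log2 0.32, SE 0.07, limma adjusted p = 0.0282) and the zinc finger gene Zmym3 (log2 -0.50, SE 0.13, limma adjusted p = 0.0396). Of 13 genes of H3K4 methylation, 2 rose and none fell (5 and none at an unadjusted p under 0.05), Rbbp5 (log2 0.37, limma adjusted p = 0.0244) and Hcfc1 (log2 0.26, limma adjusted p = 0.0422).

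Of the 15 further lysine demethylases and Jumonji relatives found in the tables, out of 16 listed, 1 rose and none fell in mutant RGCs, and 5 were higher and 1 lower at an unadjusted p under 0.05. Phf8, an X-linked demethylase gene, had 1016, 1034 and 900 in WT and 1514, 1277 and 1315 in mutant RGCs (log2 0.51, SE 0.08, limma adjusted p = 0.0238). Their median log2 fold change was 0.08. Kdm7a, listed under its older symbol Jhdm1d, had 1834 in mutant RGC library 1 and between 867 and 1281 in the other 8 libraries, and its difference did not pass (log2 0.52, SE 0.20, limma adjusted p = 0.0926).

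**Figure D3:**
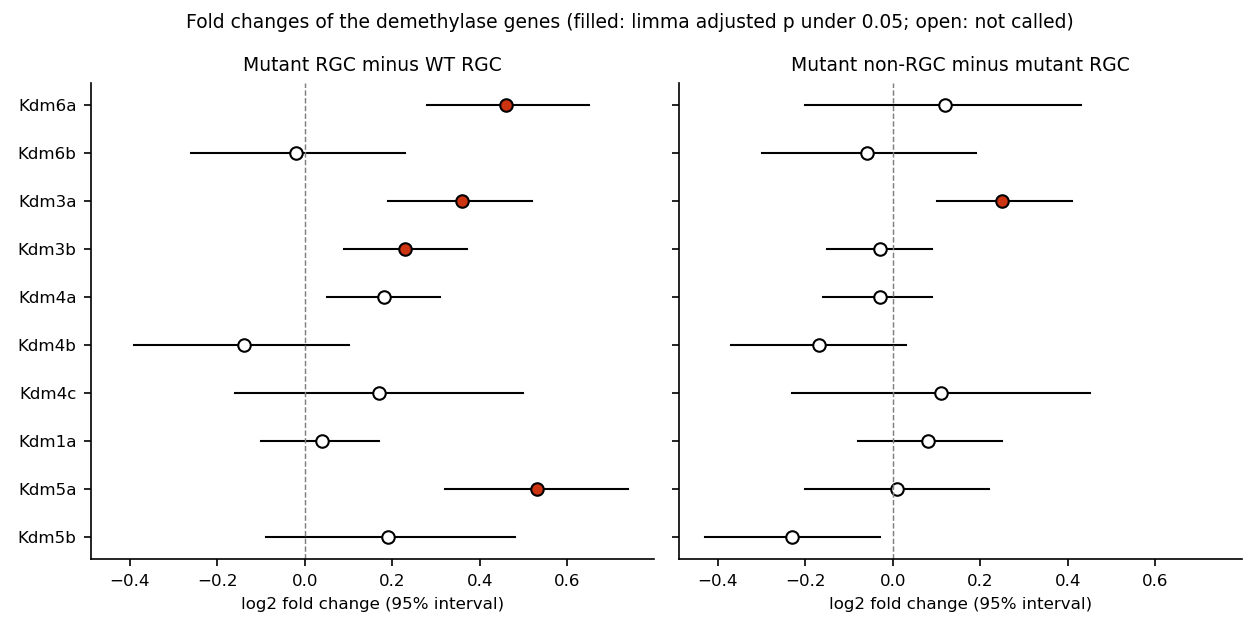
Log2 fold change of each demethylase (horizontal axis) with its 95% interval, for mutant against WT RGCs (left) and mutant non-RGC against mutant RGC cells (right), from limma on log2(normalised count + 1) with 3 libraries per group. Filled points were called, 4 on the left and 1 on the right.

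Cell marker RNAs of the bead-selected cells differed between the genotypes along with the demethylases. All 18 ganglion cell markers, among them Thy1 and Pou4f2, had lower values in each mutant RGC library than in each WT library, and 8 passed as lower, with summed normalised counts of 41477 to 48008 in WT and 20310 to 31973 in mutant RGCs. Of 18 proliferation genes 17 rose, with sums of 14866 to 25714 in WT and 33564 to 34492 in mutant RGCs. In addition, 5 of 14 progenitor, 5 of 12 photoreceptor and 7 of 12 amacrine and horizontal cell markers rose, and none was called lower. Of all genes tested, 13.7% were called higher and 12.3% lower. At an unadjusted p under 0.05, 2 amacrine and horizontal cell markers were lower. That list and the photoreceptor list each had 1 marker lower in each mutant RGC library than in each WT library. Over all genes tested this share was 24.9%. In bulk RNA, fewer cells of a type and less RNA per cell cannot be told apart. Within WT, library 3 had a proliferation sum of 25714 against 14866 and 16473. Its Kdm6a (987) and Kdm5a (1604) lay between those of WT libraries 1 and 2, its Kdm3a (1689) was slightly above them and its Kdm3b (2346) below them. Values of 1 library cannot show the part of the shift in cell markers in the demethylase results, which was not tested.

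Mutant RGC library 1 differed from the other mutant RGCs in markers of several cell types. Its microglia sum was 7863 against 2324 and 2058, its endothelial and pericyte sum 9630 against 5453 and 5620, its pigment epithelium sum 2235 against 1168 and 1183 and its ganglion cell sum 20310 against 31821 and 31973. Over the 9 libraries, 4 of the 10 members, Kdm6b, Kdm3b, Kdm5a and Kdm5b, were highest there. All microglia, endothelial and astrocyte markers had reads in every group, the pigment epithelium gene Rpe65 was at 0 in the WT RGC and non-RGC groups and the lens genes Cryaa and Crygd in the non-RGC group, and the lens list summed to at most 160. The part of these other cells in the demethylase values of that library was not tested.

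The calls for the demethylases depended on which libraries were kept. The log2 fold changes of Kdm5a, Kdm6a, Kdm3a and Kdm3b stayed between 0.45 and 0.57, 0.41 and 0.53, 0.31 and 0.40, and 0.20 and 0.24 when 1 library was left out. All 4 calls were lost without WT library 1 or 2 or mutant RGC library 2 or 3, with limma adjusted p between 0.0670 and 0.1272, and that of Kdm3b also without mutant RGC library 1 (adjusted p = 0.0524), where the other 3 stayed. Without WT library 3 all 4 calls stayed and Kdm4a was added (limma adjusted p = 0.0399), among 6478 genes called. Without WT library 1 or 2 or mutant RGC library 2 or 3, limma called 9, 8, 3 and 9 genes in all, against 3971 with all libraries.

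**Figure D4:**
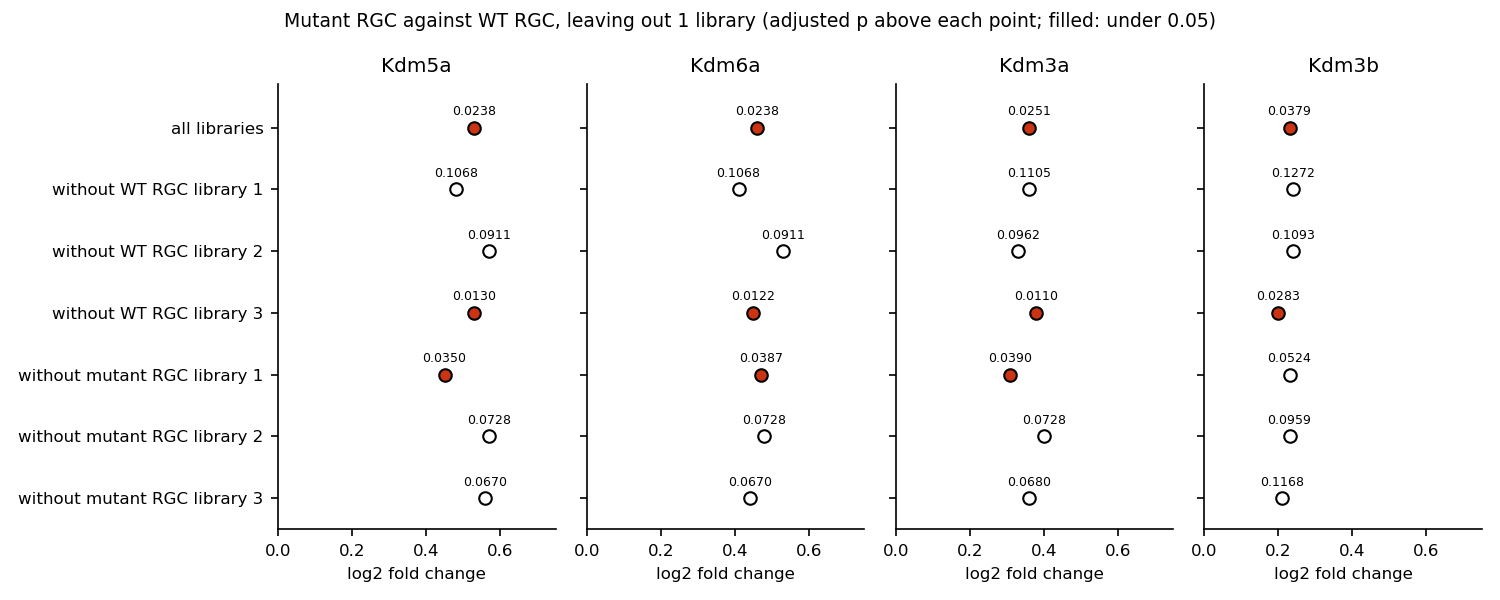
Log2 fold change of Kdm5a, Kdm6a, Kdm3a and Kdm3b in mutant against WT RGCs (horizontal axis) with all 6 libraries and with each library left out (rows). The limma adjusted p stands above each point, and filled points are under 0.05. The fold changes move little, and points are open where WT library 1 or 2 or mutant RGC library 2 or 3 is left out, and for Kdm3b also where mutant RGC library 1 is.

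The 2 fractions of mutant retina were compared to ask how demethylase RNA is divided by the bead selection. Kdm3a was higher in the non-RGC cells by 19.3%, and no other demethylase passed. The authors' deposited table, from DESeq, called none of the 10 (none at an unadjusted p under 0.05 either) and 6.47% of 25252 genes. The median log2 difference of the 10 was -0.01, against 0.01 for all 15178 genes tested, of which 17.1% were called and 5.07% called higher. The comparison shares the mutant RGC libraries with that of the genotypes, so the values of each are not independent of the other. At an unadjusted p under 0.05, 1 member was higher and 1 lower, where 31.8% of all genes passed, 12.6% as higher and 19.2% as lower.

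Kdm3a had 2056 ± 169 in mutant RGCs and 2450 ± 84.1 in non-RGC cells (SD, n = 3 each; log2 0.25, SE 0.07, 95% interval 0.10 to 0.41, limma adjusted p = 0.0404). Groups that did not overlap with the non-RGC cells higher were found for 17.1% of all genes tested. The call was not made by the authors' deposited table (adjusted p = 0.4042) or without a filter (limma adjusted p = 0.0571), and it was lost without any 1 of mutant RGC libraries 2 and 3 and non-RGC libraries 1, 2 and 3 (limma adjusted p between 0.0746 and 0.1583). None of the 15 hypoxia-induced genes passed the limma test between the fractions, and 1 was higher at an unadjusted p under 0.05.

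Kdm6a was the member whose fraction difference turned most on single libraries. With all libraries it did not pass (log2 0.12, 95% interval -0.20 to 0.43, limma adjusted p = 0.6040). Non-RGC library 3, nearly without Xist, had 1192 against 1725 and 1572, and without it the log2 difference was 0.27 (limma adjusted p = 0.0419). Without non-RGC library 1, the highest, the difference was 0.00140 (limma adjusted p = 0.9963), and without library 2 it was 0.07 (limma adjusted p = 0.8118). Leaving out both non-RGC library 3 and mutant RGC library 1, an alternative chosen after the data were seen, gave 0.27 (limma adjusted p = 0.0085). The Y-linked level as a covariate gave 0.16 (limma adjusted p = 0.3000). Mutant RGC library 1 was also nearly without Xist but had 1377, between the 1312 and 1405 of the other mutant RGCs. The sum of Kdm6a and Uty did not set non-RGC library 3 apart to the same degree, at 1650 against 1855 and 1708.

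Kdm5b was lower in each non-RGC library (2884, 2825 and 3227) than in each mutant RGC library (3946, 3245 and 3284), which held for 20.6% of all genes tested (37.7% in either direction), but did not pass (log2 -0.23, SE 0.09, 95% interval -0.43 to -0.03, limma adjusted p = 0.1141). It passed with the Y-linked level as a covariate (log2 -0.27, limma adjusted p = 0.0040) and without the libraries nearly lacking Xist (log2 -0.20, limma adjusted p = 0.0030). Kdm4b (log2 -0.17, 95% interval -0.37 to 0.03, limma adjusted p = 0.2304) passed without mutant RGC library 1 (log2 -0.26, limma adjusted p = 0.0294). Kdm5a, at log2 0.01 (95% interval -0.20 to 0.22), and Kdm3b, at -0.03 (95% interval -0.15 to 0.09), which had risen against WT, did not pass between the fractions (limma adjusted p = 0.9402 and 0.7229). Kdm6b, Kdm4a, Kdm4c and Kdm1a had log2 differences of -0.06, -0.03, 0.11 and 0.08 and did not pass (limma adjusted p between 0.4517 and 0.7550).

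Of the 15 further demethylases and Jumonji relatives, 2 were higher in non-RGC cells and none lower (2 and 2 at an unadjusted p under 0.05), Jmjd6 (log2 0.27, limma adjusted p = 0.0276) and Kdm8 (log2 0.45, limma adjusted p = 0.0305). Of the PRC2 genes, 2 of 11 were higher, Ezh2 (log2 0.25, limma adjusted p = 0.0242) and Phf19 (log2 0.49, limma adjusted p = 0.0471). Of the CoREST genes 2 of 12 were higher, Hmg20b (log2 0.55, limma adjusted p = 0.0070) and the histone deacetylase gene Hdac1 (log2 0.27, limma adjusted p = 0.0254), of 13 H3K4 methylation genes 1, Cxxc1 (log2 0.24, limma adjusted p = 0.0216), and of 13 H3K9 methylation genes none in the limma test, with 1 higher at an unadjusted p under 0.05. The fractions differed in cell markers, with ganglion cell sums of 20310 to 31973 in RGCs and 7383 to 13123 in non-RGC cells, and microglia sums of 2058 to 7863 and 55.8 to 73.6. Proliferation sums were 33564 to 34492 and 40229 to 41275. The part of these cells in the Kdm3a difference was not tested.

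The members did not vary as 1 block. Over the 9 libraries, Kdm5a followed Kdm6a, Kdm3a and Kdm3b with Pearson correlations of log2 values of 0.89, 0.86 and 0.88, Kdm4b ran against Kdm3a at -0.92, and Kdm6b and Kdm1a reached at most 0.65 and 0.63 with any other member. These are descriptions over 9 libraries that share 3 group means and the differences in cell markers above. By the same measure among 12687 genes with a mean of at least 50, the genes most like Kdm3a were Cwc22 (0.993), Zcchc11 (0.991) and Bnip2 (0.986), those most like Kdm5a Erbb2ip (0.993), Zkscan8 (0.990) and Nup153 (0.986), those most like Kdm6a C2cd3 (0.972), Nup155 (0.966) and Brca2 (0.965), and those most like Kdm3b Lig3 (0.970), Zfp39 (0.968) and Lemd3 (0.958). Within groups the spread was lowest for Kdm4a in WT (coefficient of variation 2.2%) and highest for Kdm4c in mutant RGCs (19.9%).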

How the data were processed

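Poly(A) RNA of bead-separated retinal cells was read as single reads. Per the submitters' processing notes, STAR 2.3, featureCounts, DESeq and FastQC were used with mm10, and the names of the deposited tables say that alignments were primary and cleared of duplicates. No strand setting is given in the sources used here. Per the file headers, the deposited signal columns are the authors' mean normalised count over each condition, beside the fold change (a ratio) with its log2, and a p-value before and after adjustment. The authors' tables hold no values per library. Counts were therefore recovered: the 3 smallest means show what 1 read is worth in each library, and each gene's mean was then searched for the 3 whole numbers that make it up. An answer was kept if it was whole to 1e-09 and every rival missed by over 10 times as much, as it was for at least 99.975% of genes above 0, and all 23953 mutant RGC genes recovered from each table were identical. In simulated data the recovered counts were right. Of the genes, 6 were left out of the genotype and 1 of the fraction comparison. Condition labels were settled from genes at 0, which matched between the mutant RGC columns with 0 mismatches, against at least 3098 otherwise.

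Recovered counts were scaled with the size factors of their own table, genes with a mean of at least 10 were kept, and limma 3.58.1 (R 4.3.3) with a variance trend was fitted to log2(value + 1) of the 6 libraries compared, with Benjamini-Hochberg adjustment over all genes and calls at an adjusted p under 0.05. The fit was tested on simulated counts. Means, SDs and values per library use size factors over all 9 libraries. The 2 mutant genotypes cannot be told apart in the tables, and 12 chromatin samples were not analysed here. All members were named, and from other lists up to 3 genes with the smallest adjusted p in the comparison described. The members and lists were chosen with earlier results of these data known.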

Additional observations from a re-analysis of the deposited data

How the results depend on the processing

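No paired analysis was possible because the recovered libraries carry no replicate numbers. Levels per kb of transcript were not run, as no transcript lengths were used here. Against WT, limma called between 3 and 6478 genes and between 0 and 5 demethylases when 1 library was left out, and the authors' deposited test called 2 demethylases. At an unadjusted p under 0.05 the members that gave 0 calls without a library still numbered between 4 and 5. Between the fractions, limma called between 438 and 3325 genes and between 0 and 2 demethylases when 1 library was left out. The authors' deposited test there called 1635 genes and 0 demethylases (0 at an unadjusted p under 0.05), and limma without a filter 0 demethylases (2 at an unadjusted p). Without a library, 0 calls between the fractions went with 1 to 2 members at an unadjusted p under 0.05. Chosen after the data were seen, the Y-linked covariate gave 4313 genes and 2 demethylases between the fractions, and leaving out the libraries nearly lacking Xist 6339 genes and 4 demethylases. The cause of these changes was not tested. Total-count scaling turned the split between the fractions from 770 higher and 1820 lower to 1465 and 1598.

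Signs turned only for members that did not pass. Under total-count scaling Kdm6b became 0.03 against WT, and Kdm6b, Kdm3b and Kdm4a became 0.01, 0.03 and 0.03 between the fractions. Against WT, Kdm6b became 0.00016 without WT library 2, 0.05 without mutant RGC library 2 and 0.02 without library 3. Between the fractions it became 0.06 without mutant RGC library 1 and 0.01 without the libraries nearly lacking Xist, Kdm4c became -0.00158 without mutant RGC library 2, and Kdm5a became -0.04, -0.02 and -0.05 without mutant RGC library 2 or 3 or non-RGC library 1. Of the member values under alternatives, 261 kept their direction and side of the threshold, 27 lost a call, 9 gained one and 13 changed sign. When 1 library was left out, log2 values ranged from -0.13 to 0.05 for Kdm6b against WT, and between the fractions from -0.13 to 0.06 for Kdm6b, -0.00158 to 0.25 for Kdm4c and -0.05 to 0.10 for Kdm5a.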
